A study of Mus musculus with 8 samples.

Results

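Disease-associated microglia genes were followed through the immune and neural cells of a mouse brain tumour. The set was taken as given, as a list of 10 gene symbols (Apoe, Trem2, Tyrobp, Cst7, Lpl, Spp1, Itgax, Axl, Clec7a and Gpnmb), and all 10 were found once each among the 33696 genes of the count matrices. The tumours were ependymomas driven by the ZFTA-RELA fusion in NestinCreERT2;Fus1;RFPTdT mice, a genotype shared by both groups, in which recombination follows the neural promoter Nestin and the fusion allele also carries luciferase. At 3 weeks of age, mice with tumours were assigned at random to vehicle IgG (the control antibody) or to mavrilimumab, an antibody to GM-CSF receptor alpha, injected once into the spinal fluid at 5 mg per kg. Brains were taken at a humane endpoint from mice aged 6 to 8 weeks, dissociated, stained for the leukocyte protein CD45 and the red cell protein Ter119, sorted, and profiled with 10x Genomics 5′ chemistry in 2 libraries per group. The paper describes its single-cell profiles of tumours under vehicle and mavrilimumab as taken at recurrence. The study describes tumours pooled within each group for its receptor sequencing, and the labels do not say how many mice a library holds, so that p-values measure only the spread between these libraries.

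Disease-associated microglia are a state first described around amyloid plaques and since seen with demyelination, ageing and tumours. Microglia enter it as they lose homeostatic genes: an early phase raises Apoe and Tyrobp, and a later phase, which needs the lipid-sensing receptor TREM2 and its signaling adaptor TYROBP (DAP12), raises genes of lipid handling and phagocytosis such as Lpl, Cst7, Axl, Itgax, Clec7a and Spp1. Several of these genes also belong to other cells, Apoe to astrocytes and neural progenitors, Cst7 to cytotoxic lymphocytes, and Tyrobp, Itgax and Clec7a to most myeloid cells.

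Cells with at least 1000 unique molecular identifiers (UMIs, counted molecules), 200 to 6000 genes, at most 10% mitochondrial UMIs and no Cd3e were divided into 4 classes by a few marker genes. Microglia (P2ry12 and Tmem119, at least 2 UMIs together) numbered 583 and 609 in the libraries labeled vehicle IgG 1 and 2, and 211 and 740 in those labeled mavrilimumab 1 and 2. Monocytes (Ccr2 and Ly6c2, with Lyz2 and without the microglial pair) numbered 3, 49, 31 and 86 in the same order, and neutrophils (Retnlg and Cxcr2, from 500 UMIs) 11, 61, 13 and 87. Neural or tumour cells (Nnat and Mdk, without Ptprc) numbered 4, 15683, 7 and 447. T cells (Cd3e) and B cells (Cd79a and Ms4a1), both without the microglial pair, served as a background. Comparisons used the libraries that held at least 20 cells of the class in question.

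The libraries were unequal before any gene was compared. They held between 24354457 and 148657643 UMIs, and the median microglial cell held 14284, 4711, 5654 and 11015.5 UMIs. All 8 independent microglial markers, among them Sall1, Siglech, Fcrls and Cx3cr1, were detected in the microglia of every library, at a summed level of 202, 55.3, 187 and 185 UMIs per 10000. The low value belonged to vehicle IgG 2, where 260 of 609 microglia (42.7%) also passed the neural gate and the 7 neural or tumour markers summed to 53.1 per 10000, against 0.336, 3.57 and 4.72 in the other libraries. Results are therefore also given under a strict gate, which admitted only cells with at most 1 UMI of each other class's gate genes and kept 574, 217, 199 and 639 microglia. The median cell kept held 14316, 2621, 5491 and 10875 UMIs, so that the microglia of vehicle IgG 2 were also shallower than under the wider gate. The part of this depth in the strict values was not tested. Pairs of expression libraries shared at most 60 cell barcodes. The sample name inside each of the 3 T cell receptor files analysed named the other treatment than its label. Most barcodes of the files labeled vehicle IgG 1, mavrilimumab 1 and mavrilimumab 2 lay in the expression libraries labeled vehicle IgG 1 (182 of 193), mavrilimumab 2 (2491 of 2749) and mavrilimumab 1 (4867 of 5659). The numbers of the mavrilimumab files were thus crossed between the 2 assays. The shared barcodes cannot show whether the treatment labels were swapped in both assays together. T cells made up 222 of 984 and 4086 of 26746 cells in the expression libraries labeled vehicle IgG, and 5181 of 6412 and 2732 of 5490 in those labeled mavrilimumab. Directions between treatments follow the labels of the expression libraries, and would turn if those labels were swapped.

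RefSeq promoter sequences (GRCm38.p6) were found for 8 of the 10 genes, and not for Tyrobp and Lpl. The 250 bases before the start of Spp1, Itgax and Cst7 are printed, the first pair because they held a motif of a myeloid or stress-responsive factor and Cst7 because it was the member with the smallest p in the treatment comparison in microglia. They lie on the forward strand at chr5:104434861-104435110, chr7:128129300-128129549 and chr2:150570165-150570414.
Spp1: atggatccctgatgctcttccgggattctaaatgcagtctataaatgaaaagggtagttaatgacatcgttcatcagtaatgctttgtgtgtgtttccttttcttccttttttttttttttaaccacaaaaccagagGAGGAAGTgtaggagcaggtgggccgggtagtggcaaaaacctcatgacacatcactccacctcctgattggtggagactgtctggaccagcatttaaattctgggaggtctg
Itgax: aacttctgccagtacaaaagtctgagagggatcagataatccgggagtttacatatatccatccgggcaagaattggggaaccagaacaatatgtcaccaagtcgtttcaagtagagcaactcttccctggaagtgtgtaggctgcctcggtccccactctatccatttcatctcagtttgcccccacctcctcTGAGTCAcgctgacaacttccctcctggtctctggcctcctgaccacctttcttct
Cst7: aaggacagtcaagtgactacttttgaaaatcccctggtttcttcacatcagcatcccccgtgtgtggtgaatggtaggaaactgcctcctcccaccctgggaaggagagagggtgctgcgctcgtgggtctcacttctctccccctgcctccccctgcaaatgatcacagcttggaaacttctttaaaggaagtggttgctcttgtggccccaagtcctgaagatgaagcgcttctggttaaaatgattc
Capitals mark matches to 3 motifs searched on both strands: GAGGAAGT, bound by the myeloid factor PU.1, TGACTCA, bound by AP-1, and CACGTG, an E-box. GAGGAAGT was found in the Spp1 window at −113 bases and in 2.44% of 32851 windows of this length. TGACTCA was found in the Itgax window, on the reverse strand at −56 bases, and in 4.46% of windows. The E-box, present in 6.02% of windows, was found in none of the 12 windows of the 8 genes.

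The receptor and its adaptor were both found in microglia of every library, but their reach into other cells differed. Trem2 reached 12.1 UMIs per 10000 in microglia of vehicle IgG 1, 4.19 in vehicle IgG 2, 14.4 in mavrilimumab 1 and 13.3 in mavrilimumab 2. In monocytes of the last 3 libraries it stood at 0.176, 0.327 and 0.0868 per 10000, on 6, 8 and 13 UMIs. Tyrobp reached 19.4, 9.13, 23.1 and 25.4 per 10000 in microglia, and 13.7, 21.6 and 22.5 in monocytes, and 28.9 and 34.8 in neutrophils of vehicle IgG 2 and mavrilimumab 2. The monocyte and microglial values of Tyrobp overlapped, whereas those of Trem2 were apart in every library. In neural cells of vehicle IgG 2 and mavrilimumab 2, Trem2 was at 0.0162 and 0.108 per 10000 and Tyrobp at 0.0530 and 0.213.

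Of the genes of lipid transport, Apoe, the main apolipoprotein of the brain, was shared with neural cells and Lpl, lipoprotein lipase, was not. Apoe stood at 83.3, 66.1, 99.0 and 109.9 UMIs per 10000 in microglia and at 51.6 and 51.2 in neural cells. It was lower in monocytes, at 5.85, 23.7 and 2.53 per 10000. In T cells, which should lack it, Apoe stayed under 0.5 per 10000 except in vehicle IgG 2, where it was at 12.97, and in droplets of at most 100 UMIs it was at 13.8, 35.8, 3.73 and 18.5. Lpl was low in microglia, at 1.45, 0.444, 1.64 and 1.02 per 10000, and at most 0.327 in any other class.

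The phagocytic and surface receptors fell into a myeloid and a broader kind. Clec7a, which encodes the fungal sugar receptor Dectin-1, was at 3.56, 1.08, 3.55 and 2.93 UMIs per 10000 in microglia and at 3.69 and 3.39 in neutrophils of vehicle IgG 2 and mavrilimumab 2. Itgax, the integrin CD11c, was at 0.855, 0.144, 0.664 and 0.430 per 10000 in microglia and at 0.753 and 0.706 in neutrophils. Axl, a receptor tyrosine kinase for bridged apoptotic cells, was nearly level across microglia at 1.90, 2.11, 2.22 and 2.14 per 10000. Neural cells carried Axl at 1.94 and 3.27 per 10000, within or above the microglial range, whereas Clec7a and Itgax stayed under 0.03 per 10000 there. Gpnmb, a lysosomal membrane glycoprotein, was at 0.0279, 2.00, 0.292 and 0.572 per 10000 in microglia and at 1.21 and 9.38 in neural cells.

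The secreted members, Spp1 and Cst7, differed in the other classes that carried them. Spp1, or osteopontin, a secreted phosphoprotein, stood at 0.945, 13.9, 2.31 and 9.89 UMIs per 10000 in microglia and at 4.78 and 34.7 in neural cells. The high microglial values of Spp1 and Gpnmb were those of vehicle IgG 2 and mavrilimumab 2, the libraries with over 20 neural cells. Gpnmb under the strict gate was at 0.0284, 0.154, 0.0327 and 0.0526 per 10000, and Spp1 at 0.947, 4.79, 1.29 and 6.35. Cst7, which encodes cystatin F, an inhibitor of lysosomal proteases, stood at 1.86, 2.28, 4.38 and 5.30 per 10000 in microglia, and in T cells at 0.703, 1.29, 1.95 and 1.72.

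**Figure D1:**
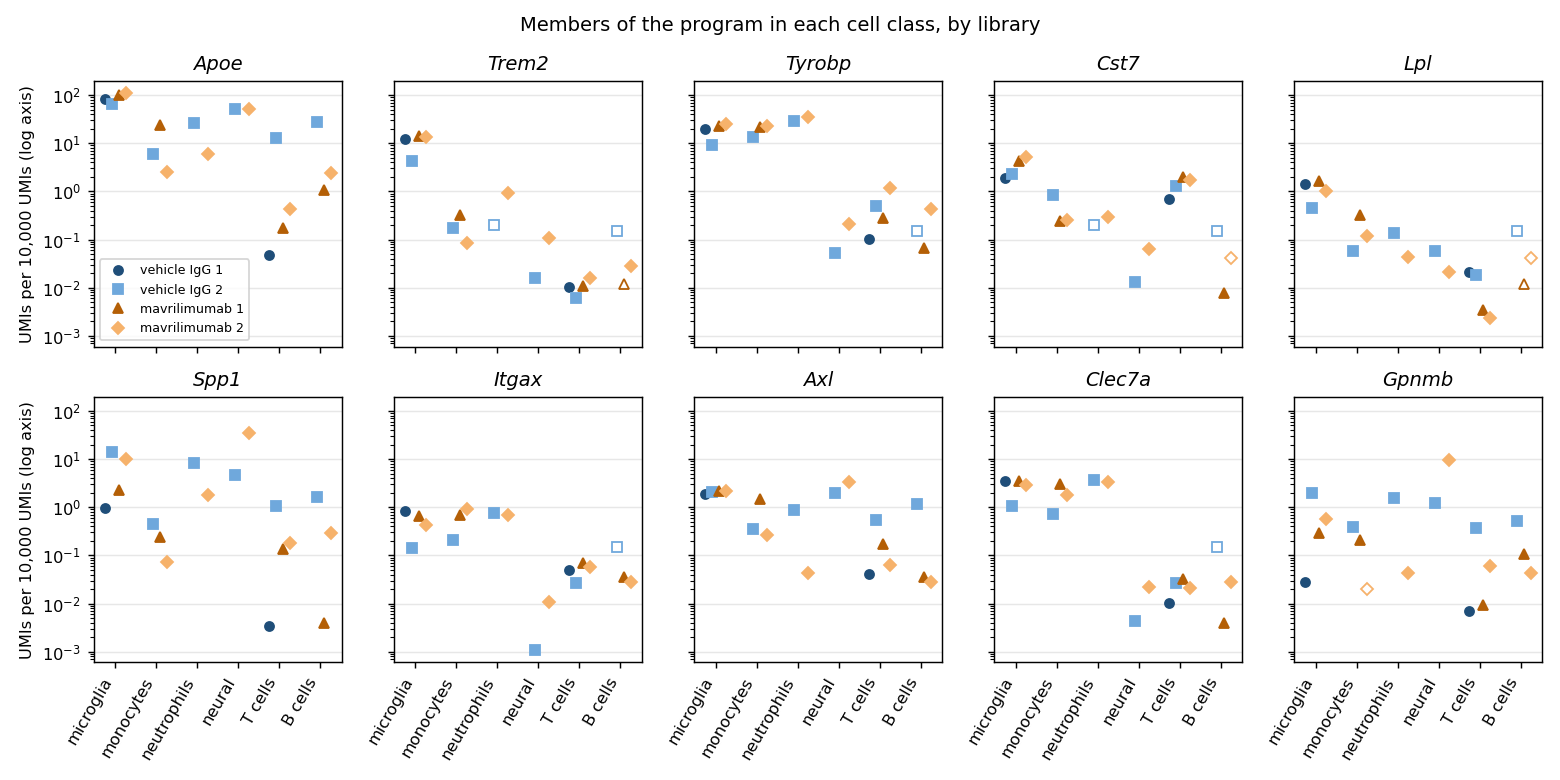
Level of each gene, in UMIs per 10000 on a log axis, in microglia, monocytes, neutrophils, neural cells, T cells and B cells. Each point is 1 library and open symbols are libraries with no UMI, drawn at the floor of 3 counts. Trem2 separated microglia from every other class, Tyrobp overlapped between microglia and monocytes and was highest in neutrophils, and Spp1, Axl and Gpnmb were lower in neural cells than in microglia of vehicle IgG 2 and higher in those of mavrilimumab 2.

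Summed per library and tested over all genes with the quasi-likelihood test of edgeR and a Benjamini-Hochberg false discovery rate (FDR) under 0.05, microglia exceeded monocytes in 7 of the 10 genes, where 13.9% of the 11397 genes tested were higher in microglia. The log2 difference was 5.90 ± 0.48 (SE, 3 libraries) for Trem2, 5.32 ± 0.59 for Spp1, 3.58 ± 0.55 for Apoe and 3.19 ± 0.54 for Cst7. Gpnmb (2.89 ± 0.78), Lpl (2.69 ± 0.33) and Axl (1.98 ± 0.44) were also higher. Tyrobp (−0.18 ± 0.22, FDR = 0.635), Clec7a (0.40 ± 0.24, FDR = 0.277) and Itgax (−0.74 ± 0.34, FDR = 0.152) did not pass. The median of the 10 differences was 2.79, against 0.14 over all genes tested. Under the strict gate, where 15% of genes were higher, Gpnmb was no longer called (0.24 ± 1.16), and the other 6 were. Without mavrilimumab 2, Axl (1.48, FDR = 0.0559) and Gpnmb (1.69, FDR = 0.0541) were not called, and the genes called in all fell from 2651 to 1145. Monocytes of mavrilimumab 2 also carried the neutrophil markers at 571 UMIs per 10000, against 145 and 1.23 in vehicle IgG 2 and mavrilimumab 1, and 21 of its 86 monocytes passed the neutrophil gate. Their part in the differences was not tested beyond the strict gate.

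Against neutrophils, in 2 libraries, 6 genes were higher in microglia (5.73% of 12380 genes tested) and 3 were lower (7.67%). In mavrilimumab 2, 14 of the 87 neutrophils also passed the microglial gate and stood on both sides, and under the strict gate the members' median went from 1.97 to 3.45 over the 9 then tested. Cst7 (4.21 ± 0.58), Trem2 (4.10 ± 0.52), Lpl (3.27 ± 0.73), Axl (2.87 ± 0.56), Apoe (2.52 ± 0.46) and Spp1 (1.35 ± 0.42) were higher. Itgax (−1.68 ± 0.51, FDR = 0.0107), Tyrobp (−1.29 ± 0.42, FDR = 0.0189) and Clec7a (−1.21 ± 0.44, FDR = 0.0470) were lower, and Gpnmb (1.41 ± 0.53, FDR = 0.0584) was not called. Trem2 was not detected in the 61 neutrophils of vehicle IgG 2, a floor of 0.205 per 10000, and its 64 UMIs in mavrilimumab 2 came from 2 cells. Neither Trem2 nor Lpl had a UMI in neutrophils under the strict gate (26.5% of genes called), which put microglia at least 143-fold and 10.9-fold higher (floor of 3 counts over both libraries), and Tyrobp was no longer called (−0.78 ± 0.46). With DESeq2 4 members were higher and only Tyrobp lower, and Lpl, Spp1, Itgax and Clec7a lost their calls.

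Against neural cells, 5 genes were higher in microglia, where 1.72% of 14696 genes were: Clec7a (7.79 ± 0.53), Trem2 (7.75 ± 0.61), Tyrobp (7.43 ± 0.59), Cst7 (7.16 ± 0.56) and Itgax (6.52 ± 0.72), with an FDR from 0.0356 to 0.0446. With RLE size factors Itgax lost its call (FDR = 0.0514). These are the receptor pair and the immune receptors together with the protease inhibitor. In these sums, 260 of the 609 microglia of vehicle IgG 2 and 33 of the 740 of mavrilimumab 2 also passed the neural gate and stood on both sides. Apoe (1.00 ± 0.64), Spp1 (0.13 ± 0.96), Axl (0.02 ± 0.40) and Gpnmb (−1.39 ± 1.43) were not called, nor was Lpl (4.30 ± 0.92, FDR = 0.173). Lpl was called as well under the strict gate (5.09 ± 0.46, FDR = 0.0263), beside 10.6% of genes, and with cells of at least 2000 UMIs no gene was called (0 of 14624; 1564 at an unadjusted p under 0.05), where the members' median log2 was 5.40 against 5.41 before.

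**Figure D2:**
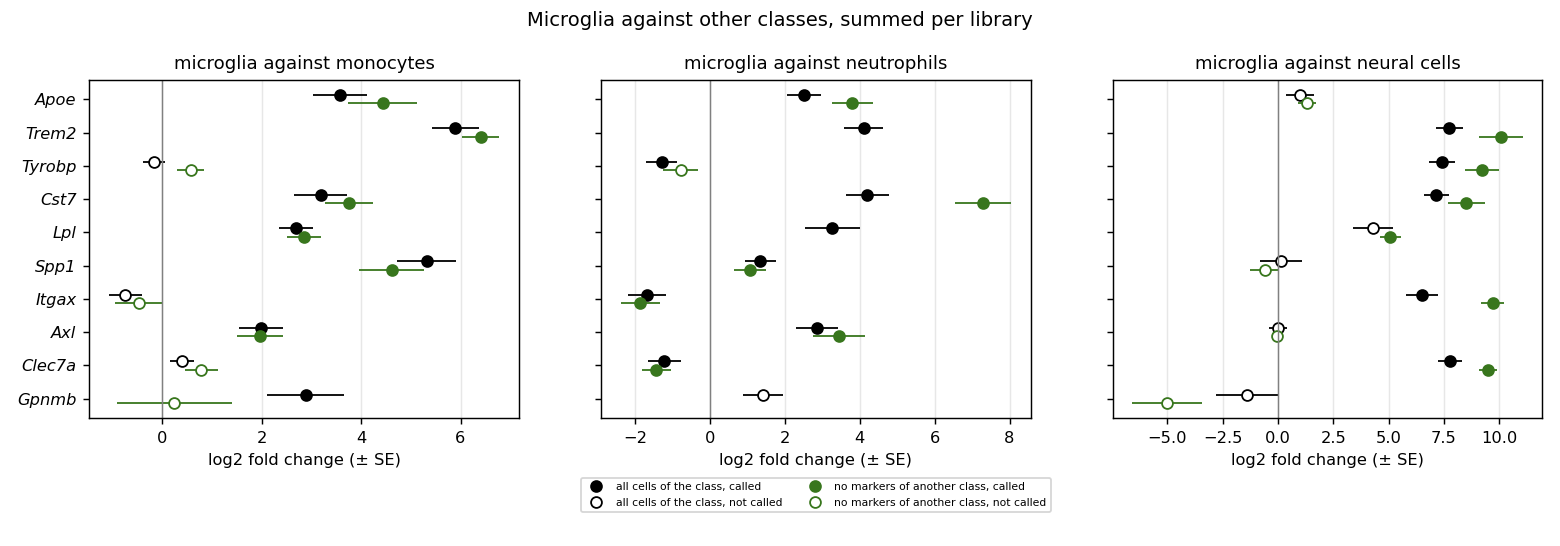
Log2 fold change (± SE, edgeR) of microglia against monocytes, neutrophils and neural cells, in all cells of the class (black) and in cells under the strict gate (green), with filled symbols for an FDR under 0.05. Genes with no UMI in the class compared, and Gpnmb in the strict neutrophil fit, where it was not tested, have no green point.

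Other genes of the same programs were read from lists of related genes. Of 25 other disease-associated genes tested against monocytes, 12 were higher in microglia and 6 lower (13.9% and 9.39% of all genes tested). Lyz2, part of the monocyte gate, is 1 of the 6 and no result. Among the others were the chemokine Ccl4 (5.44), the protease Ctsd (5.17), the metalloprotease inhibitor Timp2 (4.94) and the galectin Lgals3 (−5.32). Of 17 homeostatic genes 16 were higher, and of 11 genes around TREM2 signaling 4 were higher, including progranulin, Grn (1.98), and 2 lower, including the kinase Syk (−1.23); under the strict gate 6 were higher and 0 lower, so that Syk lost its call. Of 10 lipid genes, 4 were higher, including the cholesterol exporter Abca1 (4.10) and the cholesterol 25-hydroxylase Ch25h, which had no UMI in monocytes, and 2 were lower, including the fatty acid receptor Cd36 (−2.15). Lgals3 (−3.54) and Syk (−2.57) were also lower in microglia than in neutrophils, and Grn (2.60) and Abca1 (2.14) were higher. Against neural cells, where 1.72% of all genes tested were higher and 0% lower, 6 of 25 other disease-associated genes, 6 of 11 around TREM2, 1 of 12 lipid genes and 11 of 17 homeostatic genes were higher. With the strict gate, where 10.6% were higher and 3.67% lower, these counts were 16, 11, 5 and 16, and 1 of the 25 was lower, the fatty acid binding protein Fabp5 (−1.68), named after its value was seen.

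The comparison of mavrilimumab with vehicle IgG asked whether blocking GM-CSF signaling moved the program in microglia. No gene of 13368 passed an FDR of 0.05 (0% called; 167 had an unadjusted p under 0.05 in edgeR, and DESeq2 called 12), so no member did. Cst7, at 1.86 and 2.28 per 10000 under vehicle IgG and 4.38 and 5.30 under mavrilimumab, had the smallest p of the members (log2 1.28 ± 0.37, unadjusted p = 0.0246, FDR = 1.00). The 2 mavrilimumab libraries were above both vehicle libraries for Cst7, Apoe, Trem2, Tyrobp and Axl, 5 of 10 genes, where 10.6% of all genes tested were, and no member was below in both, where 15.6% of genes were. For 3 of these, Apoe (0.53 ± 0.52), Trem2 (0.80 ± 0.68) and Tyrobp (0.81 ± 0.58), the lower vehicle value was that of vehicle IgG 2, the library with neural markers in its microglia. The median log2 difference was 0.52 over the members and −0.12 over all genes. None of the 25 other disease-associated, 11 TREM2, 11 lipid and 17 homeostatic genes tested was called either.

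Under the strict gate vehicle IgG 2 was no longer the lowest library for Apoe, Trem2 and Tyrobp, but it was for Lpl (1.07 per 10000), Clec7a (2.86) and Axl. Cst7 then stood at 1.84 and 7.03 per 10000 under vehicle IgG and at 4.83 and 5.95 under mavrilimumab, so that the groups overlapped, and its log2 difference was 0.34. Tyrobp overlapped too (19.3 and 27.9 against 25.2 and 26.7 per 10000). Apoe (83.5 and 88.4 against 106.0 and 122.0), Trem2 (12.1 and 13.2 against 15.9 and 14.8) and Axl (1.90 and 1.67 against 2.25 and 2.13) did not overlap, 3 of 10 genes beside 13.9% of all genes tested. The members' median was 0.26 and that of all genes −0.03. Leaving out 1 library changed the count of called genes from 0 to 4779 without vehicle IgG 1 (33.6% of genes; 7 members higher and Gpnmb lower) and to 445 without vehicle IgG 2 (3.1% of genes; Cst7 and Gpnmb higher), and left it at 0 without mavrilimumab 1 or 2. The first of these fits sets both mavrilimumab libraries against vehicle IgG 2 alone, the library with neural markers in its microglia.

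**Figure D3:**
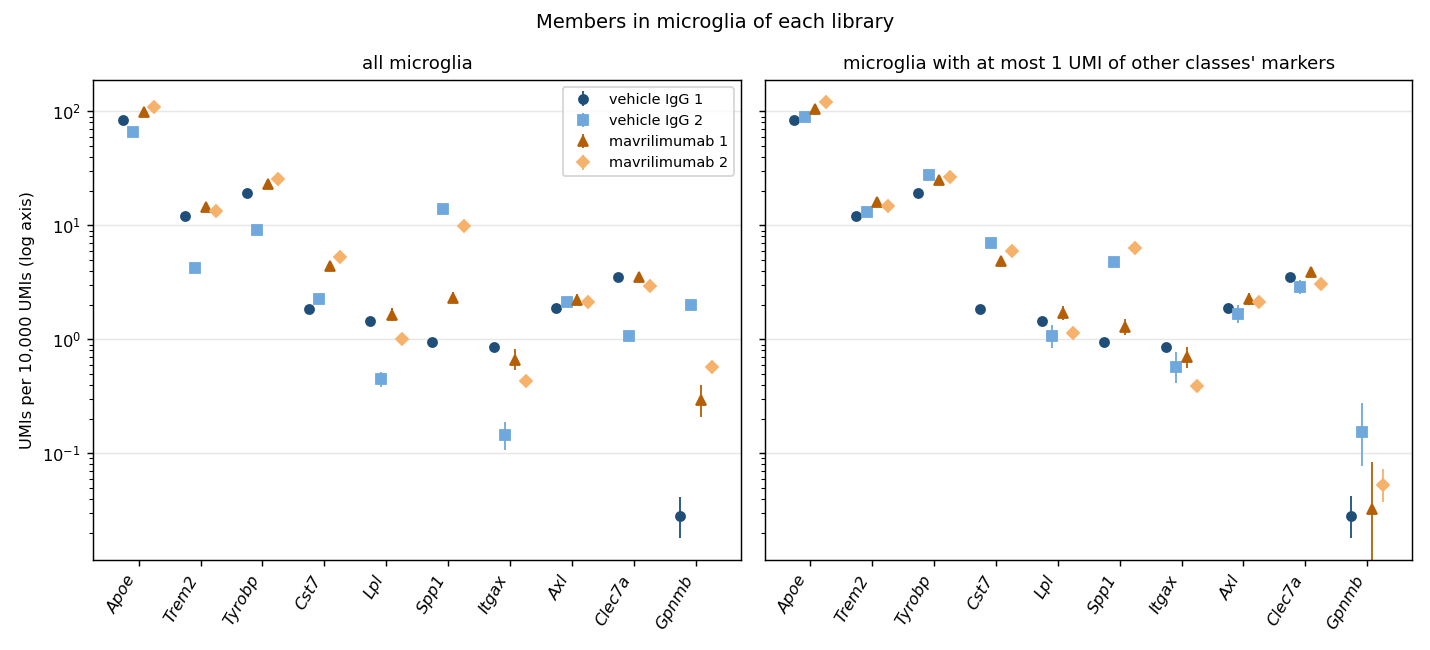
Level of each gene in microglia of the 4 libraries, in UMIs per 10000 on a log axis, in all microglia (left) and in microglia under the strict gate (right), with exact 95% intervals for counting error. Spp1 and Gpnmb in vehicle IgG 2 fell between the 2 views while Trem2, Tyrobp and Cst7 in that library rose.

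Shares of cells were compared at a fixed depth. After each cell was thinned to 1000 UMIs, Trem2 was seen in 53.2% and 38.8% of microglia under vehicle IgG and in 67.3% and 66.1% under mavrilimumab (before thinning, 82.5%, 53.0%, 85.8% and 86.4%). Cst7 was seen in 13.4% and 14.6% against 22.3% and 29.5% (43.7%, 24.5%, 48.8% and 65.7% before thinning). These differences, 20.7 and 11.9 points, had an exact permutation p = 0.333, the smallest that 2 libraries against 2 allow. Of the other members, Tyrobp (20.4 points) and Axl (3.58 points) did not overlap between groups either. Clec7a (6.80 points), Lpl (1.77), Apoe (1.26), Itgax (0.97), Gpnmb (−1.77) and Spp1 (−2.63) overlapped. The share of all genes without overlap was not computed for this measure. The groups overlapped under the strict gate for Trem2, seen in 53.3% and 74.2% against 70.9% and 66.8% (5.09 points, exact permutation p = 1), and not for Cst7, seen in 11.5% and 25.3% against 25.6% and 34.3%. Neither held across thinnings under that gate: Trem2 did not overlap in a second draw (10.03 points) or at 2000 UMIs (12.04 points), and Cst7 overlapped at 2000 UMIs (11.9 points, p = 0.667 in the exact permutation test). In T cells, of median 12683.5, 2540.5, 3841 and 10979.5 UMIs, Cst7 was seen in 5.86%, 12.3%, 16.4% and 13.3%, and Trem2 in at most 0.183%. Since T cells express Cst7, B cells served as its background: it was seen in 0.581% of those of mavrilimumab 1, in 0 of 52 in vehicle IgG 2, which allows a share of up to 5.77%, and in 0 of 132 in mavrilimumab 2, which allows up to 2.27%.

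In monocytes, the 2 mavrilimumab libraries could be set against vehicle IgG 2 alone, which shows how that library differed and no difference between treatments. Of 6670 genes 82 were called (1.23%), 78 of them lower in the mavrilimumab libraries, against 0 with voom and 10 with RLE size factors, and no member was (0.524% of genes and Cst7, at −2.78 ± 0.48 and FDR = 0.0443, under the strict gate). Of the members, 3 had an unadjusted p under 0.05. Cst7 was at 0.852 UMIs per 10000 under vehicle IgG, on 29 UMIs in 5 cells, and at 0.246 and 0.254 under mavrilimumab (log2 −1.66 ± 0.52, FDR = 0.206). Itgax (0.206 against 0.696 and 0.941 per 10000, log2 2.12 ± 0.58, FDR = 0.151) and Clec7a (0.735 against 3.07 and 1.83, log2 1.78 ± 0.50, FDR = 0.168) had the opposite sign. The members' median was 0.95, against 0.02 over all genes. The lone vehicle library is assumed to vary like the others, and neural markers were at 13.05 per 10000 in its monocytes, against 0.368 and 1.04. In the other classes 1 library a group left no test: neutrophils held Apoe at 26.7 in vehicle IgG 2 and 6.00 in mavrilimumab 2, and neural cells held Spp1 at 4.78 and 34.7.

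In the 3 libraries with both microglia and monocytes, the differences from vehicle IgG 2 were set side by side in the 2 classes. Vehicle IgG 2 is the only vehicle library on both sides, 42.7% of its microglia passed the neural gate and its monocyte Cst7 rested on 5 cells. It is assumed to vary like the others, so that the test compares this library with the mavrilimumab libraries and shows no difference between treatments. Cst7 stood at 2.28 per 10000 in microglia of that library against 4.38 and 5.30 under mavrilimumab, and at 0.852 against 0.246 and 0.254 in monocytes. The interaction was 2.81 ± 0.54 on the log2 scale (edgeR, FDR = 4.59e-05), where 2.57% of 12978 genes were called. Of the 25 other disease-associated genes 4 were called in the same direction: the protease inhibitor Serpine2 (4.25), the chemokine Ccl3 (2.81), the protease Ctsl (2.52) and the oxidase subunit Cybb (1.45); under the strict gate Ccl3 and Fabp5 were higher and Ank lower. No other member passed, with Trem2 next (1.91 ± 0.69, FDR = 0.143). Cst7 was lower under mavrilimumab in both classes with the strict gate, at 7.03 against 4.83 and 5.95 per 10000 in microglia and at 1.50 against 0.246 and 0.205 in monocytes, so that the opposite directions of the wider gate were lost. Strict monocytes numbered only 23 in vehicle IgG 2, and 31 and 63 in mavrilimumab 1 and 2. The interaction there (2.29, FDR = 0.00365) sets 2 differences of the same sign against each other, and Apoe (−2.23, FDR = 0.00540) and Itgax (−2.51, FDR = 0.0365) were called as well, beside 2.23% of genes.

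Within microglia, Apoe and Spp1 were spread over cells very unequally and the other genes less so. Apoe averaged 6.24, 7.52, 7.81 and 10.6 UMIs in a microglial cell thinned to 1000 UMIs, with a median of 2, 3, 2 and 6 and a highest cell of 82, 132, 84 and 154. It was seen in 59.0%, 77.2%, 64.0% and 74.7% of cells, where an even spread of the same UMIs would have reached 99.8% or more. In T cells, which should lack Apoe, the thinned share was 0.901%, 34.8%, 1.14% and 3.44%, at the median depths given above, so that the background was highest in vehicle IgG 2. The 10% of cells highest in Apoe held 50.4%, 50.2%, 45.6% and 40.9% of its UMIs. Spp1 was rarer and more uneven: the highest 10% held 84.1% of its UMIs in vehicle IgG 2 and 92.6% in mavrilimumab 2, where it was seen in 22.8% and 17.3% of cells against 64.5% and 64.8% for an even spread and 5.21% and 1.79% in T cells. Trem2 and Axl, at lower levels than Apoe, had a ratio of variance to mean of 1.29 to 1.66 and 1.21 to 1.32, against 17.5 to 21.7 for Apoe.

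**Figure D4:**
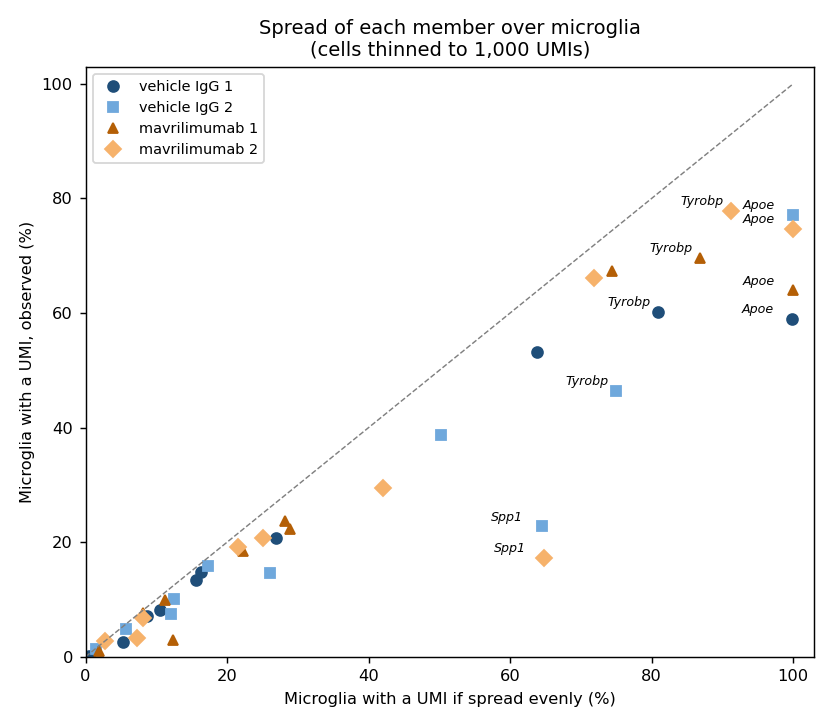
Percent of microglia with a UMI of each gene after thinning to 1000 UMIs (vertical axis) against the percent that the same number of UMIs would reach if spread evenly over cells (horizontal axis), 1 point per gene and library, with the dashed line for equality. The points farthest under the line were Spp1 in mavrilimumab 2 and vehicle IgG 2, then Apoe in vehicle IgG 1 and mavrilimumab 1. Tyrobp in vehicle IgG 2 (46.5% against 74.9%) lay farther under it than Apoe in that library (77.2% against 99.9%).

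After thinning, most microglia that passed the gate on P2ry12 and Tmem119 carried a few of the 10 genes and few carried many. Before thinning, in cells of unequal depth, at least 5 of 10 were seen in 55.7%, 25.8%, 52.6% and 66.2% of microglia. The low shares of cells with many genes thus belong to the thinned depth. At least 5 of 10 were seen in 11.1%, 8.87%, 18.5% and 18.5% of thinned microglia, and in 10.6%, 16.1%, 19.6% and 20.0% under the strict gate. All of Apoe, Trem2 and Tyrobp were seen in 33.1%, 23.3%, 42.7% and 45.7% of cells (35.7%, 43.8%, 47.7% and 47.4% under the strict gate), and none of the 10 in 16.8%, 4.6%, 10.4% and 3.78%. At least 3 of the 7 late members (Cst7, Lpl, Spp1, Itgax, Axl, Clec7a and Gpnmb) were seen in 4.80%, 6.24%, 6.16% and 8.24% (4.01%, 9.22%, 9.05% and 9.70% under the strict gate). A second thinning under the strict gate gave 5.05%, 11.5%, 5.53% and 7.04%, and turned the sign of the difference between treatments, which was 2.76 points in the first. Under the wider gate without thinning, at least 3 late members were seen in 48.9%, 32.0%, 43.1% and 58.0%. Pairs were compared with the number of cells expected if the genes were independent, among pairs with at least 5 cells expected. The median ratio over pairs was 1.33, 1.14, 1.22 and 1.15 in the 4 libraries, and 29 of 30, 21 of 32, 20 of 21 and 29 of 36 pairs were above 1. Pairs of genes outside the set were not counted. These counts therefore have no background share and do not set the members apart from other genes. Cst7 and Clec7a shared 1.35 to 3.03 times the expected cells over the 4 libraries, Tyrobp and Cst7 1.11 to 1.96 times and Trem2 and Tyrobp 1.10 to 1.81 times. The highest of each range was vehicle IgG 2, where the strict gate gave 2.07, 1.12 and 1.03 times. Axl was near or under its expectation with Trem2 (0.753 to 1.10 times) and with Tyrobp (0.762 to 1.04 times). Gpnmb shared 0.189 to 0.224 times the expected cells with Trem2 and 0.141 to 0.446 times with Cst7 in the 2 libraries that allowed it, and 3.05 times with Spp1 in 1 library. Of these pairs of Gpnmb with Trem2, Cst7 and Spp1, only that with Trem2 in mavrilimumab 2 had 5 cells expected under the strict gate. Its ratio was 0.935, on 5 cells.

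**Figure D5:**
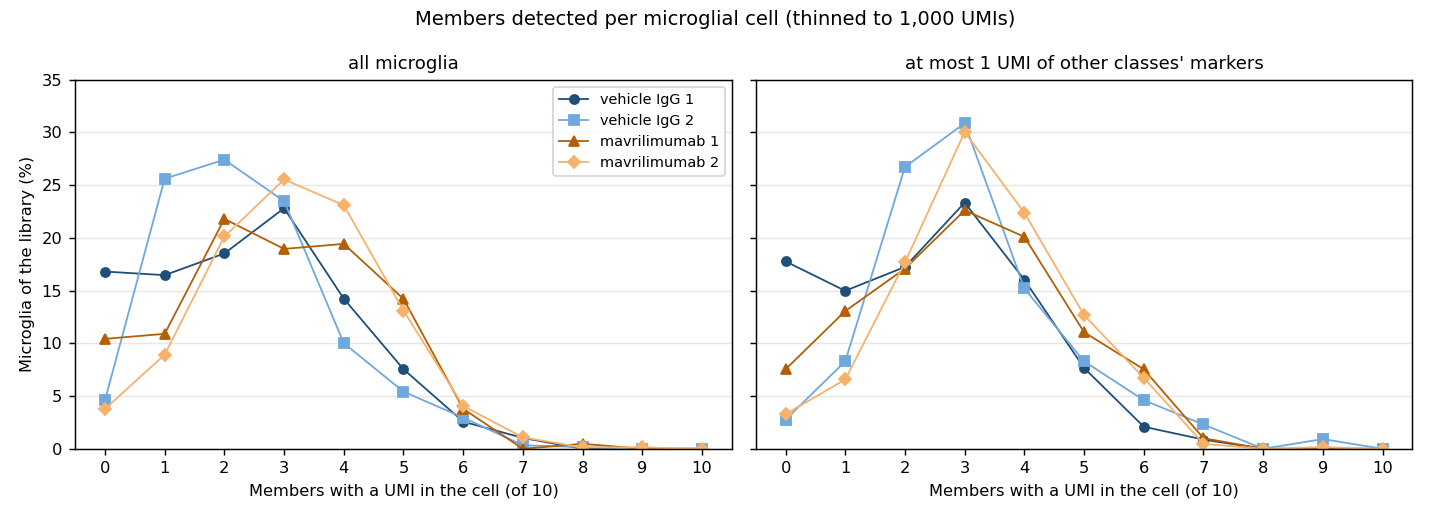
Percent of microglia of each library by the number of the 10 genes seen in the cell after thinning to 1000 UMIs, in all microglia (left) and in microglia under the strict gate (right). Vehicle IgG 1 had the most cells with none of the genes, 16.8% and 17.8%.

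To see what accompanied the late genes, thinned microglia with at least 3 of the 7 late members were compared with those that had none, within vehicle IgG 1 (28 and 330 cells), vehicle IgG 2 (38 and 309) and mavrilimumab 2 (61 and 294). The cut divides a continuous range: 19 of the 28 cells of vehicle IgG 1 had exactly 3 late genes, and 71 more had exactly 2. The late genes defined the cut and are no result here. Apoe, which did not, stood at 201 against 37.0 UMIs per 10000 in vehicle IgG 1, 208 against 46.1 in vehicle IgG 2 and 209 against 55.7 in mavrilimumab 2. It was higher in the cells with several late genes in all 3 libraries, by a log2 of 2.19 ± 0.22 (edgeR, FDR = 4.34e-20), where 1.35% of 4513 genes were higher, and it was not called when all UMIs of the cells were summed without thinning (2.13, FDR = 0.102). Tyrobp passed narrowly (24.6 against 12.5, 31.8 against 10.5 and 25.1 against 22.4 per 10000, log2 0.93 ± 0.28, FDR = 0.0485) and lost its call in another random thinning (FDR = 0.0705) and without any 1 of the 3 libraries (FDR from 0.252 to 0.737). Trem2 did not pass (0.57 ± 0.31, FDR = 0.479).

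Of 92 other genes called (2.24% of genes, members included), 52 rose and 40 fell in the cells with several late genes. Those with the largest rise were the inhibitory receptor Pdcd1 (PD-1, log2 3.46), the inhibitory receptor Lilrb4a (2.73), the kinase Fgr (2.59), fibronectin, Fn1 (2.44), the metabolite receptor Hcar2 (2.44), the B cell and myeloid lectin Cd72 (2.34), the fatty acid binding protein Fabp5 (2.28) and the actin capping protein Capg (2.13). Pdcd1 was at 1.43, 1.58 and 1.97 UMIs per 10000 in those cells and at 0.182, 0.0971 and 0.170 in the others. The 8 rises rested on 20 to 42 UMIs each in the cells with several late genes over the 3 libraries, and Pdcd1 on 22. Fn1 was at 5.74 against 0.782 in mavrilimumab 2 but at 0.526 against 0.421 in vehicle IgG 2. Fabp5 was at 4.29 against 0.121 in vehicle IgG 1 but at 0.526 against 0.485 in vehicle IgG 2. Of 24 other disease-associated genes tested, 14 rose, among them Cd52 (1.97), the tetraspanin Cd63 (1.63) and Ccl4 (1.61), and of 17 homeostatic genes 3 rose, the complement genes C1qa (0.96), C1qb (0.92) and C1qc (0.79), and none fell. The gate itself required the homeostatic genes P2ry12 and Tmem119, so cells that had lost them were left out before this comparison. The 8 falls of greatest fold under the cut, among them the cadherin Fat3, transthyretin (Ttr), the neural gene Nnat and Gm10790, rested on 1 to 8 UMIs in the cells with several late genes over the 3 libraries, and none of them was called in a second thinning (FDR from 0.0603 to 0.569), although the log2 difference stayed near its size for some, such as Bank1 (−3.53 against −3.50). Thinning to 2000 UMIs called 6 of the 8, a cut at 2 late genes called 7, and the strict gate called both that it could test. Nnat, which lay at 21.6 per 10000 in the cells without late genes of vehicle IgG 2, was the exception at the cut of 2 (0.089, FDR = 0.900). Before thinning the cells with several late genes held more UMIs in vehicle IgG 1 (median 25625 against 11999 UMIs) and mavrilimumab 2 (13080 against 11200), and in vehicle IgG 2 the medians were 4203.5 and 4132. The part of depth was not tested beyond thinning. The second thinning called 16 other genes, of which 13 were shared, with Ccl4, Cd52, Cd63, Cd72, Ctsb, Ctsd, Cxcl13, Fth1, B2m and H2-D1 as the rises. Of the 8 named rises only Cd72 was among them. Thinning to 2000 UMIs kept 71 of the 92 genes, with 7 of the 8 named rises, and the strict gate kept 57, with Pdcd1, Lilrb4a, Cd72 and Fabp5 of those 8. Pdcd1 was the named rise not called at 2000 UMIs (log2 2.05, edgeR, FDR = 0.0553), and it was not tested at the cut of 2 late genes. Leaving out vehicle IgG 1 left 41 genes called, leaving out mavrilimumab 2 left 16 and leaving out vehicle IgG 2 gave 151, against 101 with all 3 libraries, and summing all UMIs left 3 genes called in all.

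Over 18 pools of cells (a class in a library, several of which share a library), each gene was matched to the genes with the most similar profile among 7907. Trem2 was nearest to the microglial lectin Siglech (Pearson r = 0.991 on log values), and Clec7a to the myeloid receptors Cd300c2 (0.992) and Cd14 (0.984). Tyrobp was nearest to the kinase Fes (0.973) and Itgax to Lst1 (0.961), each with Clec7a next (0.965 and 0.960). Apoe was nearest to the lipoprotein receptor Lrp1 (0.955) and to Marcks (0.950), Lpl to E230029C05Rik (0.974) and Gpr84 (0.967), and Axl to Sdc3 (0.969). Gpnmb was nearest to Fbxo2 (0.959), a gene not known as myeloid, and Cst7 to Ctla2b (0.905).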

How the data were processed

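The deposited matrices hold UMI counts per gene and droplet, output of the authors' Cell Ranger run (the file headers give version 9.0.1, the submitters' processing notes name Cell Ranger 7.1.0, Scanpy 1.8.2 and mm10) and not filtered for cells. The deposited T cell receptor contig files served only to check labels.

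Levels are UMIs summed over the cells of a class in a library, per 10000 UMIs of those cells. Shares were also taken after thinning each cell to 1000 UMIs. Intervals and floors (3 counts for a count of 0) cover counting error only. Counts summed per library were tested with edgeR 4.0.16 (TMM normalization, filterByExpr, quasi-likelihood test, Benjamini-Hochberg FDR under 0.05 over all genes tested) in R 4.3.3, with DESeq2 1.42.0 and limma 3.58.1 (voom) as alternatives. For shares, libraries were permuted exactly and two-sided. Standard errors were derived from each fold change and its F statistic. Other steps ran in Python 3.11.15 with matplotlib 3.10.9, pandas 2.3.3, scipy 1.17.1 and numpy 2.4.6. The edgeR step was tested on simulated data.

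No doublet caller was run; the strict gate, with at most 1 UMI of each other class's gate genes, was used beside the main gates. Cells were not clustered, so cell classes are gates on a few genes. The members and the related lists were chosen with earlier results of these data known. Besides the members, at most 8 rising and 8 falling genes of greatest fold in the comparison of microglia with several and no late members, 4 genes per related list and 2 nearest genes per member were named by rule; the genes shared between 2 thinnings were named after their values were seen. Some genes that the rule would name are not reported here. Replicate numbers 1 and 2 occur in both groups; the correlation of same-numbered libraries' deviations was 0.218 over 13368 genes with only 2 pairs, so the main test has no block.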

Additional observations from a re-analysis of the deposited data

Results flagged for a closer look

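For Cst7, the difference of the mavrilimumab libraries from vehicle IgG 2 in microglia minus that in monocytes was 2.81 on the log2 scale (edgeR, FDR = 4.59e-05). Both sides rest on that single vehicle library, so that no difference between treatments is shown, and in it 42.7% of microglia passed the neural gate and 5 of 49 monocytes held 29 Cst7 UMIs. Cst7 was higher in microglia and lower in monocytes of the mavrilimumab libraries under the wider gate. Under the strict gate it was lower in both, at 7.03 against 4.83 and 5.95 per 10000 in microglia, with 23 monocytes left in vehicle IgG 2. The T cell markers summed to 0.500 UMIs per 10000 in monocytes of vehicle IgG 2 and to 0.327 and 0.0467 in those of mavrilimumab 1 and 2, and their part in the difference was not tested.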

How the results depend on the processing

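Counts of called genes changed with the tool, the filter, the gate and the libraries. For microglia between treatments, DESeq2 called 12 genes, voom and RLE size factors 0, and leaving out 1 library gave 0 to 4779 genes and 0 to 8 members. For monocytes between treatments, DESeq2 called 30, voom 0, RLE size factors 10, no filter on low counts 583 (2 members) and the strict gate 29 (1 member, Cst7). DESeq2 called 983 genes (5 members, 1 of them lower) against neutrophils and 1604 against neural cells, where voom called 391, no filter 2120, the strict gate 2035 and at least 2000 UMIs per cell 0 (0 members). Against monocytes, leaving out 1 library gave 1145 to 3180 genes and 5 to 8 members. For microglia with several late members, DESeq2 called 20 genes, voom 255, the strict gate 171, a cut at 2 late members 373, thinning to 2000 UMIs 269, another thinning 24, all UMIs summed 3 (2 members), and leaving out 1 library 16 to 151. The strict gate called 3 members in the interaction. The causes were not tested.

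Directions turned for members not called in the reported fit, and 2 of these were called after turning, Apoe in the interaction under the strict gate and Gpnmb between treatments in microglia without vehicle IgG 2. Between treatments in microglia, Spp1 was 0.30 with voom and 0.49 under the strict gate, Itgax −0.43 under the strict gate and Gpnmb 1.08 with voom. Without 1 library, Lpl ranged from −0.13 to 1.76, Spp1 from −1.50 to 2.74, Itgax from −0.67 to 2.09, Clec7a from −0.11 to 1.796 and Gpnmb from −1.91 to 4.06. Trem2 in monocytes was −0.84 with voom. Tyrobp against monocytes was 0.57 under the strict gate and −0.29 to 0.030 without 1 library, and against neural cells Spp1 was −0.60 and Axl −0.049 under the strict gate. In the interaction, the strict gate turned Apoe (−2.23), Tyrobp (−1.08) and Gpnmb (−0.47). Of the differences in share, Apoe was −3.10 points without thinning and −7.82 to 10.4 without 1 library. Under the strict gate Spp1 was 2.08 and Itgax −0.28 points. Without 1 library Spp1 ranged from −12.8 to 7.50, Itgax from −1.89 to 3.83 and Gpnmb from −5.46 to 1.92 points.

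With the replicate number as a block, no gene was called in microglia between treatments (0, as without it), and Spp1 (0.45) and Gpnmb (0.72) changed sign. Same-numbered libraries share only a number as far as the labels say. Without 1 library, and for the block in monocytes, no fit was possible in the treatment comparison of monocytes, where 1 vehicle library was used. Shares were compared at 1000 UMIs, the minimum of the gate for microglia.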
